A study of Arabidopsis thaliana with 6 samples.

Results

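The genes described here carry the symbols VPS, PRA or TET followed by a digit and belong to 3 families of the membrane trafficking machinery of Arabidopsis thaliana. They were chosen by symbol among probe sets listed with exactly 1 gene, with symbols taken from the RefSeq gene table, and no measured value enters the rule. The rule gave 36 genes of the 13281 genes that could be named in this way: 10 VPS genes, 11 PRA genes and 15 TET genes. RefSeq holds 63 genes whose symbol follows the rule (29 VPS, 18 PRA and 16 TET), and the others among the 63 were not analysed here. Each of the 36 genes had 1 probe set, and all 36 probe set names have the plain ending _at, which Affymetrix gives to probe sets that match a single transcript.

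Petioles, the leaf stalks, were taken from plants kept apart in single pots (single plants, the controls) and from plants placed, right after the move to pots, at a density of 2066 plants per m2 (dense canopy). All plants grew in 9 h of light and 15 h of darkness at 20°C and were harvested about 23 days after sowing, when the canopy held 0.9 units of leaf area per unit of ground (its leaf area index). Each group had 3 arrays, and each array measured the pooled young petioles of 4 plants, 2 from each plant. The labels name no genotype, ecotype, mutant or transgene, and give light intensity for the chamber but no light measurement inside the canopy. The comparison addresses which transcripts of these families differ between petioles of crowded and of isolated plants.

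Proteins that are to be degraded in the vacuole are gathered into small vesicles that bud into the lumen of an endosome, which then becomes a multivesicular body. ESCRT complexes carry out this sorting: ESCRT-I and ESCRT-II gather ubiquitin-tagged cargo, and ESCRT-III forms the filaments that pinch the vesicles off. Many VPS (vacuolar protein sorting) proteins are ESCRT subunits. PRA1 proteins (prenylated Rab acceptors) are small membrane proteins that bind prenylated Rab GTPases and help to place them on the membranes of the secretory and endocytic pathways. Tetraspanins (TET) span the membrane several times and gather partner proteins into membrane patches, and in Arabidopsis TET8 marks small extracellular vesicles that carry small RNAs out of the cell. Auxin carriers of the PIN family reach the vacuole by the multivesicular body route.

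TET8 (AT2G23810) rose 1.61-fold in the dense canopy and was the 1 gene of the 36 past the test over all probe sets, a call that was lost in 5 of the 6 fits that left out 1 array. Among the VPS genes the ESCRT-III genes VPS46.2, VPS24.1 and VPS2.1 stood above the single plants on every canopy array, by 0.27 to 0.41 log2 units, without passing the test, while the ESCRT-III genes VPS2.2 and VPS60.1 had lower canopy means, by -0.36 and -0.16 with overlapping groups. Groups that did not overlap, with the canopy higher, were found for 7.71% of all probe sets. Among the PRA genes the 3 measured genes of clade B, PRA1.B1, PRA1.B4 and PRA1.B6, stood below the single plants on every canopy array, by 0.26 to 0.34 log2 units, and did not pass either. Groups without overlap and with the canopy lower were found for 9.3% of all probe sets, and the clade was grouped after the values were seen. All values are RMA expression values read as log2, a difference is the canopy mean minus the single-plant mean, and a call means a Benjamini-Hochberg adjusted p under 0.05 in limma over 22746 probe sets. By that rule 0.677% of all probe sets were called (0.426% higher and 0.251% lower in the canopy), and 1 of 36 members is a count too small to read against that share. In bulk petioles, fewer cells of a type and less RNA per cell cannot be told apart.

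**Figure D1:**
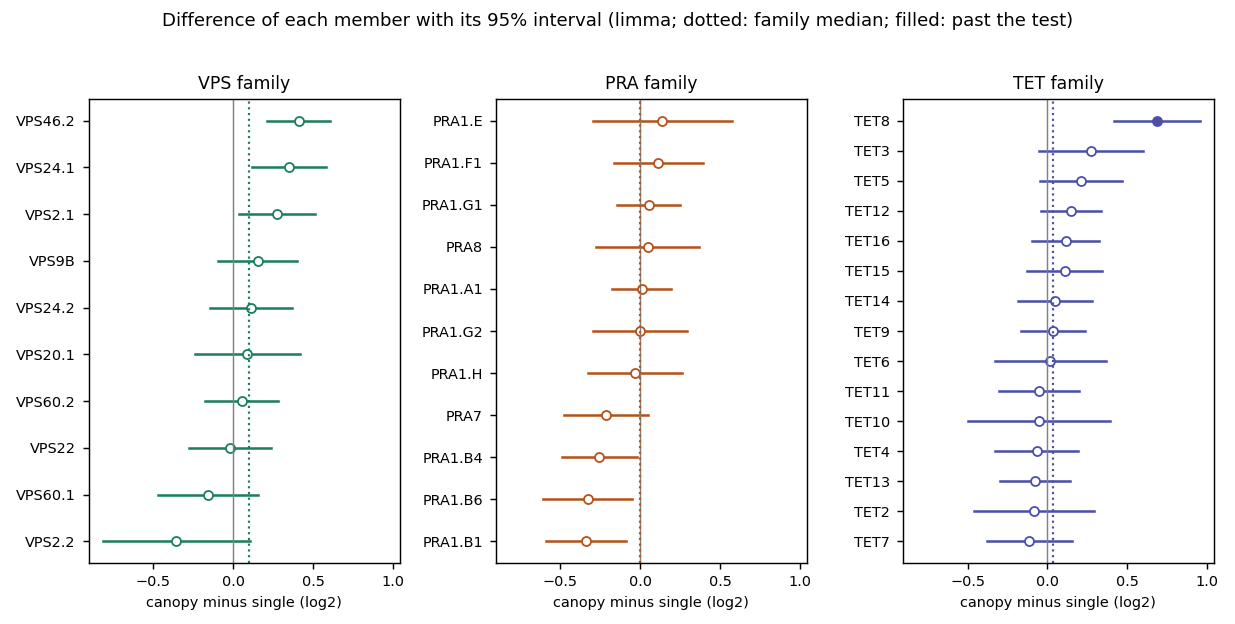
Difference of each of the 36 members between dense canopy and single plants (x axis, log2) with its 95% interval from limma, by family, with a dotted line at the family median and a filled point for an adjusted p under 0.05. TET8 is the filled point at 0.69, and the 3 PRA1 genes of clade B lie at the bottom of their panel at -0.26 to -0.34.

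The medians of the PRA and TET families lay close to that of all probe sets, and the VPS median lay above it. The median difference was 0.10 over the 10 VPS genes, -0.0023 over the 11 PRA genes and 0.036 over the 15 TET genes (log2), beside -0.0030 over all 22746 probe sets. The per-array median of the VPS genes had a spread of 0.083 between replicates (SD). Of the VPS genes 7 were higher and 3 lower in mean, of the PRA genes 5 and 6, and of the TET genes 9 and 6. Limma at adjusted p under 0.05 called 0 VPS genes, 0 PRA genes and 1 TET gene. At an adjusted p under 0.1, which 1.62% of all probe sets met, VPS46.2 joined TET8. At an unadjusted p under 0.05, which 12.2% of all probe sets met (5.13% upward and 7.11% downward), there were 3 VPS genes and 1 TET gene that were higher and 3 PRA genes that were lower. The groups did not overlap for 6 members higher in the canopy and 3 lower, beside 7.71% and 9.3% of all probe sets (17% together).

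The 95% intervals of the members reached a median of 0.26 log2 units to either side of the difference, beside 0.25 over all probe sets. The median size of the members' differences, without their sign, was 0.11. The 95% interval of the difference lay within a 2-fold change either way for all 36 members and within 1.5-fold for 30 of them, and the 10 VPS intervals ran from -0.82 to 0.61, the 11 PRA intervals from -0.61 to 0.57 and the 15 TET intervals from -0.50 to 0.95 (log2). For 8 members, 7 of them tetraspanins, the mean level was at or below 0.870, the lower quartile of all probe sets, where a fold change is likely to be understated.

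**Figure D2:**
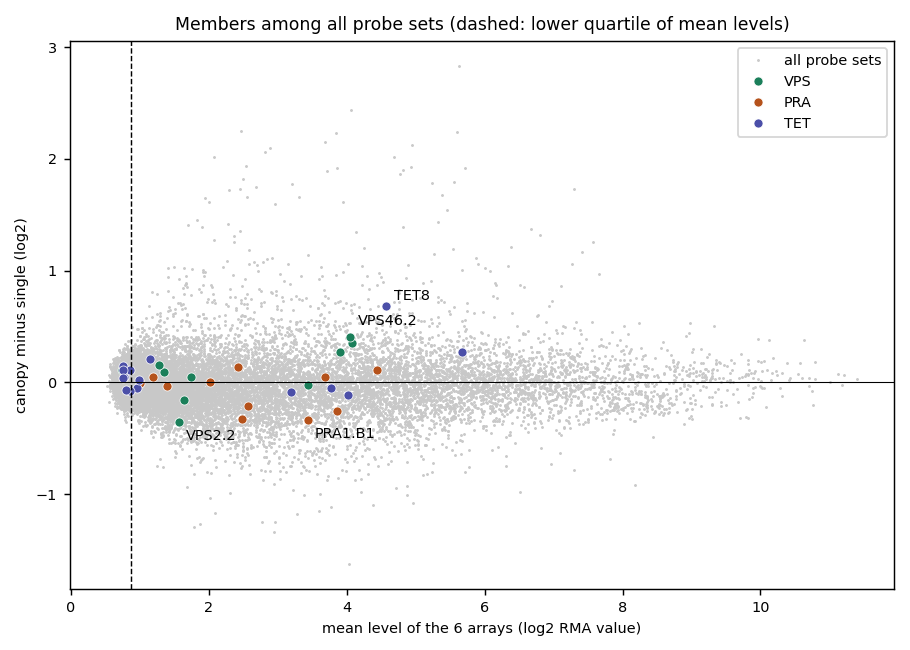
Difference between dense canopy and single plants (y axis, log2) against the mean level of the 6 arrays (x axis, log2 RMA value) for all 22746 probe sets in grey and the members in colour, with a dashed line at the lower quartile of 0.870. TET8 stands highest among the members at a difference of 0.69, and 8 members lie at or left of the dashed line.

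The canopy values of TET8, the extracellular-vesicle tetraspanin, were 5.04, 4.94 and 4.74 in replicates 1, 2 and 3, and its single-plant values were 4.05, 4.23 and 4.37. The lowest canopy array stood 0.37 above the highest single-plant array. The means were 4.91 ± 0.15 and 4.22 ± 0.16 (log2, SD, n = 3), a difference of 0.69 ± 0.12 (SE; 95% interval 0.42 to 0.95; limma adjusted p = 0.046). An exact permutation test over the 6 arrays gave p = 0.1, the smallest that 3 against 3 arrays allow. The call was close to the threshold: limma adjusted p was 0.14, 0.16 and 0.080 without single replicates 1, 2 and 3, and 0.082 and 0.14 without canopy replicates 1 and 2, and only without canopy replicate 3 did it pass, at 0.0495. The difference itself lay between 0.60 and 0.77 in those 6 fits. With the test run on probe sets of 1 gene alone, the limma adjusted p was 0.0527. The probes of the spiked control dap, which is added to the RNA and does not come from the plants, averaged 3.74 ± 0.15 in the canopy, against 4.04 ± 0.12 for single plants (log2 with SD, n = 3; exact permutation p = 0.1). The 3′ probe sets of the other spiked controls differed by 0.0031 and -0.055 for lys, -0.17 and -0.17 for phe, and -0.36 and -0.20 for thr (log2). The canopy arrays also had a lower median, by -0.022, and a lower upper quartile, by -0.041 (log2; exact permutation p = 0.1 each). For the actin control, the 3′ probe set exceeded the 5′ one by 5.03 ± 0.12 in the canopy and by 5.35 ± 0.26 in single plants (exact permutation p = 0.2). The part of these shifts in the differences of TET8 and of the PRA1 genes of clade B was not tested. With the arrays set to equal medians, TET8 differed by 0.71, PRA1.B1 by -0.32, PRA1.B6 by -0.31 and PRA1.B4 by -0.23. After repeated quantile normalization the differences were 0.70, -0.30, -0.28 and -0.22 in the same order. The unadjusted limma p of PRA1.B4 was 0.036 as reported, 0.055 with equal medians and 0.067 after the quantile normalization.

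**Figure D3:**
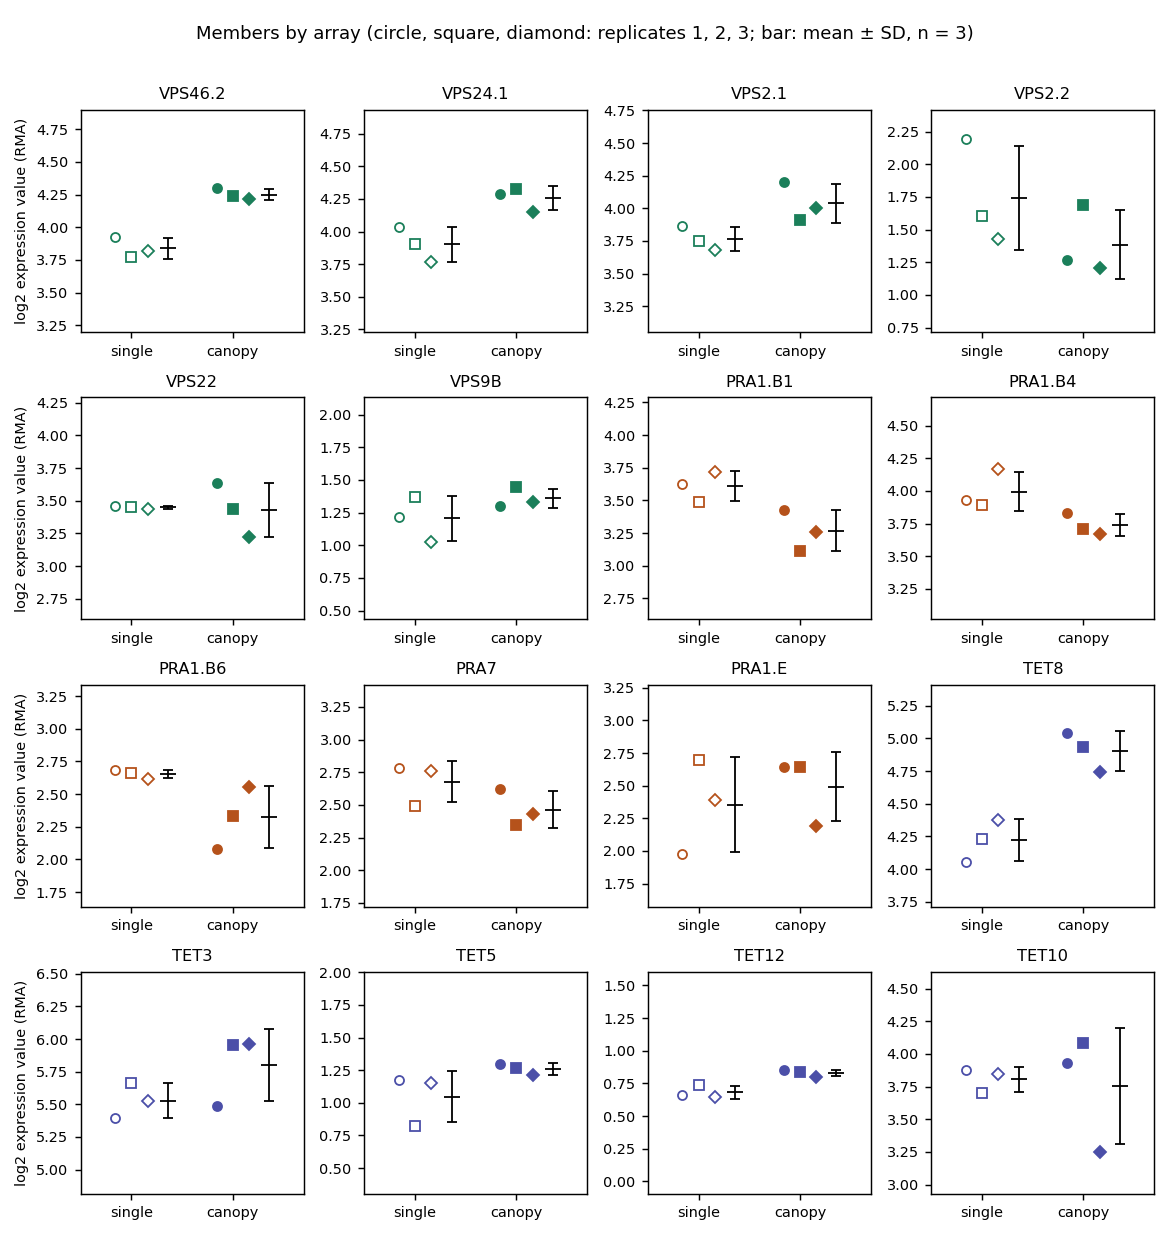
Log2 expression value (y axis) of 16 members on each array, open symbols for single plants and filled symbols for the dense canopy, with circle, square and diamond for replicates 1, 2 and 3 and a bar for the mean ± SD (n = 3); every panel spans the same height. The TET8 groups are apart by 0.37, those of VPS46.2 by 0.29, and those of VPS22, VPS2.2, PRA1.E and TET10 overlap.

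The tetraspanins closest in name to TET8 had other values. TET7 stood at 4.12, 4.03 and 3.74 in the canopy and at 4.14, 4.13 and 3.98 in single plants. Its groups overlapped, and its difference was -0.11 ± 0.12 (log2, SE; 95% interval -0.38 to 0.15; limma adjusted p = 0.78). TET9, which has been found with TET8 on extracellular vesicles, was near the bottom of the scale in both groups, at 0.78 ± 0.04 and 0.74 ± 0.08 (log2, SD, n = 3), and differed by 0.04 ± 0.09 (SE). The difference between TET8 and TET7 on the same array was 0.92, 0.90 and 1.00 in the canopy and -0.08, 0.10 and 0.40 in single plants, so their ratio shifted by 0.80 log2 units with no overlap. This shift had an exact permutation p of 0.1, the smallest possible, and an adjusted p of 0.33 over the 10 pairs of related members compared, which were chosen with the values known. TET8 alone already separated the groups, so the shift largely restates its difference and is no separate result. The ratio of TET8 to TET9 shifted by 0.65 log2 units, also without overlap.

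TET3, a tetraspanin of the plasma membrane, stood at 5.49, 5.96 and 5.97 in the canopy and at 5.40, 5.67 and 5.52 in single plants. Canopy replicate 1 lay among the single plants and the other canopy arrays above them. The difference was 0.27 ± 0.14 (log2, SE; 95% interval -0.05 to 0.60; limma adjusted p = 0.50), and without canopy replicate 1 it was 0.43 (limma adjusted p = 0.14). TET5, which with TET6 is known to restrain organ growth, stood at 1.30, 1.26 and 1.21 in the canopy and at 1.18, 0.82 and 1.15 in single plants. Its groups were separated by 0.038, and the difference was 0.21 ± 0.11 (log2, SE; limma adjusted p = 0.51). Without single replicate 2 it was 0.097 (limma adjusted p = 0.83). TET6 differed by 0.02 ± 0.15 (log2, SE) with overlapping groups. The mean levels of TET5 and TET6, 1.15 and 0.98, lay below the array medians, which ran from 1.28 to 1.32.

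TET12, known from sperm cells, stood at 0.85, 0.83 and 0.80 in the canopy and at 0.66, 0.74 and 0.65 in single plants. The groups did not overlap, but all 6 values lie at the low end of the scale, and the difference was 0.15 ± 0.08 (log2, SE; limma adjusted p = 0.54). TET10 showed the largest spread among the tetraspanins, with canopy values of 3.93, 4.08 and 3.25 and single-plant values of 3.88, 3.70 and 3.84. Canopy replicate 3 alone was low. The difference was -0.05 ± 0.19 (log2, SE; limma adjusted p = 0.95) and turned to 0.20 without canopy replicate 3. TET2 was also lowest on canopy replicate 3, at 2.76, with 3.40 and 3.27 on the other canopy arrays and 3.07 to 3.33 in single plants, and differed by -0.08 ± 0.16 (log2, SE). Of the remaining tetraspanins TET4, TET11, TET13, TET14, TET15 and TET16 had mean levels of 0.76 to 0.96, differed by -0.08 to 0.11 and had overlapping groups. TET16 and TET11 are neighbours in RefSeq order, with differences of 0.11 ± 0.09 and -0.05 ± 0.11 (log2, SE), both with overlapping groups.

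Of the 10 VPS genes, 8 encode ESCRT-III subunits, 1 (VPS22) an ESCRT-II subunit and 1 (VPS9B) a relative of VPS9A, the exchange factor that activates RAB5-type GTPases. Over the 8 ESCRT-III genes the median difference was 0.10, limma called 0, and 3 had an unadjusted p under 0.05, all of them higher in the canopy, beside 5.13% of all probe sets that met this threshold upward and 12.2% that met it in either direction. VPS46.2 (AT1G73030), also named CHMP1A and known to act with its relative CHMP1B in sorting PIN auxin carriers into multivesicular bodies, stood at 4.30, 4.24 and 4.22 in the canopy and at 3.93, 3.77 and 3.82 in single plants. The groups were separated by 0.29, and the spread within each was small. The difference was 0.41 ± 0.09 (log2, SE; 95% interval 0.21 to 0.61; unadjusted p = 0.0012, limma adjusted p = 0.091), a 1.33-fold ratio. Its adjusted p lay between 0.076 and 0.26 over the 13 alternative settings.

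VPS24.1 (AT5G22950), a subunit that closes the ESCRT-III filament in yeast, stood at 4.28, 4.33 and 4.15 in the canopy and at 4.03, 3.91 and 3.77 in single plants. All canopy arrays lay above all single-plant arrays, by 0.12 or more, with a difference of 0.35 ± 0.10 (log2, SE; 95% interval 0.12 to 0.58; limma adjusted p = 0.19). VPS2.1 (AT2G06530), which works beside VPS24 in the same filament, stood at 4.20, 3.91 and 4.00 in the canopy and at 3.86, 3.75 and 3.68 in single plants. The gap between the groups was 0.045, and the difference was 0.27 ± 0.10 (log2, SE; 95% interval 0.04 to 0.51; limma adjusted p = 0.33).

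VPS2.2 and VPS24.2, the relatives of VPS2.1 and VPS24.1, did not show separated groups. VPS2.2 stood at 1.26, 1.69 and 1.21 in the canopy and at 2.19, 1.60 and 1.43 in single plants. Single replicate 1 was high and the other arrays overlapped, so that the difference of -0.36 ± 0.20 (log2, SE; limma adjusted p = 0.55) became -0.13 without that array. VPS24.2 lay near the bottom of the scale, with a canopy mean of 0.80 ± 0.20 and a single-plant mean of 0.69 ± 0.06 (log2, SD, n = 3). VPS60.1, a partner of the ESCRT-III regulator LIP5, differed by -0.16 ± 0.14 and VPS60.2 by 0.05 ± 0.10 (log2, SE), and VPS20.1, whose yeast counterpart starts the filament, by 0.09 ± 0.15. The ratio of VPS2.1 to VPS2.2 shifted by 0.63 and that of VPS60.1 to VPS60.2 by -0.21 log2 units. Both ratios overlapped between the groups (exact permutation p = 0.2 and 0.4).

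VPS22 stood at 3.63, 3.44 and 3.22 in the canopy and at 3.46, 3.45 and 3.44 in single plants. The single plants were nearly equal and the canopy arrays lay on both sides of them. The difference was -0.02 ± 0.11 (log2, SE; 95% interval -0.28 to 0.24; limma adjusted p = 0.97), with a sign that turned when the arrays were set to equal medians (0.0028). VPS9B stood at 1.30, 1.44 and 1.33 in the canopy and at 1.22, 1.37 and 1.03 in single plants, with overlapping groups and a difference of 0.15 ± 0.11 (log2, SE; limma adjusted p = 0.65).

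PRA1 genes are sorted into clades by letter, and the clades were grouped here after the values were seen. The canopy values of PRA1.B1 (AT3G56110) were 3.43, 3.12 and 3.26, and its single-plant values were 3.62, 3.49 and 3.72. The groups were separated by 0.056, with a difference of -0.34 ± 0.11 (log2, SE; 95% interval -0.59 to -0.09; limma adjusted p = 0.25). PRA1.B6 (AT5G07110), which inhibits the transport of some proteins out of the endoplasmic reticulum, stood at 2.08, 2.34 and 2.55 in the canopy and at 2.68, 2.66 and 2.62 in single plants. The single plants lay close together and the canopy arrays spread below them, so that the difference was -0.33 ± 0.12 (log2, SE; limma adjusted p = 0.31) and -0.21 without canopy replicate 1. PRA1.B4 (AT2G38360) stood at 3.83, 3.71 and 3.67 in the canopy and at 3.93, 3.89 and 4.16 in single plants. Again no array overlapped, with a gap of 0.061 and a difference of -0.26 ± 0.10 (log2, SE; limma adjusted p = 0.36). These were the 3 PRA genes with an unadjusted p under 0.05, and the 3 with groups that did not overlap, beside 7.11% and 9.3% of all probe sets that met these conditions downward.

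**Figure D4:**
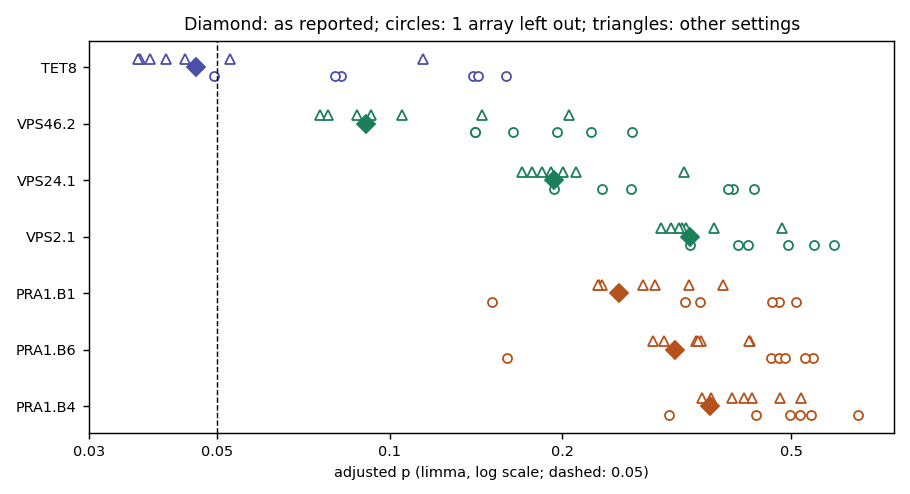
Limma adjusted p over all probe sets (x axis, log scale, dashed line at 0.05) of the 7 members with an unadjusted p under 0.05, with a diamond for the value as reported, circles for the 6 fits that left out 1 array and triangles for the 7 other settings. TET8 lies on both sides of the line, from 0.036 to 0.16, and the other members lie right of it at every setting.

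PRA7, also named PRA1.F2, stood at 2.62, 2.35 and 2.43 in the canopy and at 2.78, 2.50 and 2.76 in single plants. The groups overlapped by 0.12, with a difference of -0.21 ± 0.11 (log2, SE; limma adjusted p = 0.52). PRA8, also named PRA1.F3, differed by 0.05 ± 0.14 and PRA1.F1 by 0.11 ± 0.12, both with overlapping groups. The ratio of PRA7 to PRA8 was lower on all canopy arrays, in mean by 0.26 log2 units (exact permutation p = 0.1, adjusted p = 0.33 over the 10 pairs). The highest canopy value of this log2 ratio was -1.20, close to the lowest single-plant value of -1.17. Of the 10 pairs 3 had no overlap, this one and those of TET8 with TET7 and with TET9. PRA1.E stood at 2.64, 2.65 and 2.19 in the canopy and at 1.98, 2.70 and 2.39 in single plants. It had the largest spread of the PRA genes, and its difference of 0.14 ± 0.19 (log2, SE; limma adjusted p = 0.86) turned to -0.05 without single replicate 1. PRA1.A1 was nearly level on all 6 arrays, from 1.96 to 2.05, and differed by 0.0076 ± 0.08. PRA1.G1, PRA1.G2 and PRA1.H differed by -0.03 to 0.05 with overlapping groups.

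Within a group the arrays did not take the extremes evenly. Canopy replicate 1 held the highest of the 3 canopy values for 19 of 36 members (52.8%, against 32.7% of all probe sets), and canopy replicate 3 held the lowest for 18 of 36 (50%, against 32.2%). TET10, TET2, TET7, VPS22, VPS2.2, PRA1.B4 and PRA1.H, named after their values were seen, had their lowest value of all 6 arrays on canopy replicate 3. In single plants replicate 1 was the highest for 18 of 36 members (50%, against 33.7%). The median within-group SD was 0.15 over the members and 0.13 over all probe sets (log2), and it ran from 0.035 for PRA1.A1 to 0.34 for VPS2.2. Canopy replicate 1 also stood apart over all probe sets, at -22.6 on the second principal component (20.6% of the variance) against 8.94 and 15.9 for the other canopy arrays.

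**Figure D5:**
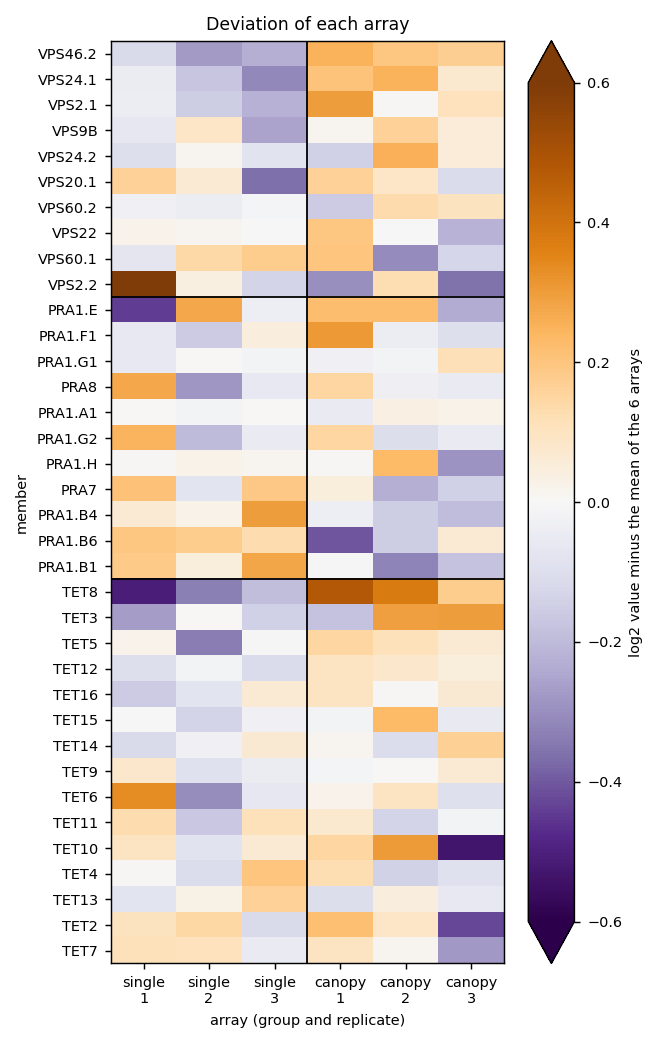
Log2 value of each member (rows, by family and sorted by difference) on each array (columns) minus its mean over the 6 arrays, with colours that saturate at 0.6 either way. VPS46.2, VPS24.1, VPS2.1 and TET8 are above their mean on the canopy arrays, the PRA1 genes of clade B are above it on the single-plant arrays, and single cells such as VPS2.2 on single replicate 1 and TET10 on canopy replicate 3 stand out.

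Other trafficking genes were followed through lists made from symbol patterns, with 29 genes paired with a probe set. Limma called 0 of the 29, and 2 had an unadjusted p under 0.05, a threshold that 12.2% of all probe sets met, with differences of -0.42 to 0.33 and a median of 0.018 (log2). SEC22, a SNARE of transport between the endoplasmic reticulum and the Golgi, had a canopy mean of 6.16 ± 0.08 and a single-plant mean of 5.86 ± 0.07 (log2, SD, n = 3), without overlap and with a limma adjusted p of 0.22. VHA-A3, a membrane subunit of the proton pump of the vacuole, stood at 5.64 ± 0.24 and 5.31 ± 0.09 (log2, SD, n = 3; limma adjusted p = 0.33). Of the 3 ESCRT genes with other names, SNF7.2, a filament subunit of ESCRT-III, differed by 0.21 ± 0.10, SNF7.1 by -0.06 ± 0.13 and ELC, the ubiquitin-binding subunit of ESCRT-I, by -0.15 ± 0.17 (log2, SE). ARA6, a plant-specific RAB5 GTPase, differed by -0.02 ± 0.19, and RAB6A, a Rab of the Golgi, by 0.00028 ± 0.095. Of the 7 exocyst genes SEC5A had the smallest p (-0.42 ± 0.24; limma adjusted p = 0.55), of the 10 autophagy genes APG8H, of the ATG8 family (0.23 ± 0.15; 0.60), and of the 2 clathrin-coat genes CHC1, the clathrin heavy chain (0.16 ± 0.15; 0.75), each given as log2 difference, SE and limma adjusted p. The lists of vacuolar sorting receptors and of sorting nexins had no gene paired with a probe set.

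The tissue was checked against marker genes. The 8 genes of the photosynthetic apparatus had mean levels of 6.66 to 10.0 and differed by -0.04 to 0.20 (log2), with 0 called by limma and 0 at an unadjusted p under 0.05. The root hair expansins EXPA7 and EXPA18, the stomatal lineage genes SPCH and MUTE and the meristem gene CLV3 had mean levels of 0.72 to 1.04, at the low end of the scale in both groups. The groups did not overlap for EXPA7 (-0.17 ± 0.09), SPCH (-0.15 ± 0.10) and PSBY, a photosystem II protein (0.20 ± 0.09; log2, SE). Their limma adjusted p was 0.47, 0.60 and 0.45. Groups without overlap were found for 7.71% of all probe sets with the canopy higher and for 9.3% with it lower. The part of the marked tissues in the members' differences was not tested. Markers of phloem, xylem, pollen and seed had no gene paired with a probe set by symbol, so vascular tissue, a main part of the petiole, was not checked.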

How the data were processed

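Transcripts of petioles were measured on Affymetrix arrays, 3 of single plants and 3 of the dense canopy. The authors deposited log2 values from RMA. The submitters' processing notes name R 2.15.0, whereas an offset and a chip definition were not found in the labels or the file. The zero point is therefore unknown, and the number of arrays limits the precision. The deposited values ran from 0.362 to 11.5. Symbols came from the RefSeq table (TAIR10.1) by Entrez number, 1 probe set per gene (highest mean), with 13513 probe sets listed with 1 gene. All 22746 non-control probe sets were fitted with limma 3.58.1 (R 4.3.3, two-sided, no filter, no block, Benjamini-Hochberg). The fit was tested on simulated data. Exact permutation tests (scipy 1.17.1, two-sided) used the 6 arrays. Nothing in the labels says that pools came from separate sowings, so p-values measure the spread between pools.

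Every member was accounted for. The value of each array was printed for called members, for the 4 members of a family with the smallest p, for the smallest p in each VPS complex and for the largest spread per family, and the smallest p of each other list was named. Members and lists were chosen with earlier results of these data known. ARA12, a protease caught by the Rab pattern, was dropped after the match was seen. Alternatives are given in the closing section.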

Additional observations from a re-analysis of the deposited data

How the results depend on the processing

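The limits are the 3 arrays per group, the unknown zero point of the scale and the low levels of 8 members, at or below 0.870. Other members lay little above that level, such as TET11 at 0.96, TET6 at 0.98 and PRA1.G2 at 1.00. The number of probe sets called was 154. It was 17 to 159 when 1 array was left out, 63 with the replicate number as a block, 53 among probe sets of 1 gene only, 369 at an adjusted p under 0.1 and 4 under 0.01. TET genes called were 1 as reported, 0 to 1 when 1 array was left out, 0 with the replicate block, 0 among probe sets of 1 gene only and 0 at an adjusted p under 0.01. VPS genes called were 0 at every setting but an adjusted p under 0.1, where VPS46.2 made 1, and PRA genes called were 0 at every setting run. The unadjusted limma p of PRA1.B4 was 0.055 with equal medians, 0.067 with repeated quantile normalization, 0.056 with the replicate block and 0.093 with the intensity trend. With that trend PRA1.B6 had an unadjusted limma p of 0.052. Of the 6 fits without 1 array, PRA1.B1 was under 0.05 in 4, PRA1.B4 in 3 and PRA1.B6 in 2. For TET8 the limma adjusted p was 0.114 with the replicate block and 0.0527 among probe sets of 1 gene only, and it lay between 0.0365 and 0.0441 with array weights, equal medians, the filter on low levels, the intensity trend and the repeated quantile normalization. Its difference lay between 0.60 and 0.77 at the 13 settings. The labels do not say whether arrays of one replicate number share a batch. The deviations from the group means had correlations of 0.0024, 0.0989 and -0.064 between arrays of one number. For 2 of 6 arrays the best match carried the same number. With 3 arrays per group these values cannot decide whether a batch was shared.

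Leaving out 1 array gave a median difference of 0.040 to 0.16 for VPS, -0.085 to 0.0059 for PRA and 0.0021 to 0.11 for TET (log2). The TET median was -0.017 with the filter on low levels, which left 8 tetraspanins. The sign turned for VPS22 with equal medians (0.0028), with repeated quantile normalization (0.015) and without canopy replicate 3 (range -0.12 to 0.085 when 1 array was left out), for TET10 without canopy replicate 3 (-0.22 to 0.20) and for PRA1.E without single replicate 1 (-0.051 to 0.31), none of which had passed. Over the 36 members the sign turned at some setting for 15 and at none for 21. The cause of these shifts was not tested. Averaging the probe sets of a gene changed nothing, since each member has 1.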
